A study of Mus musculus with 4 samples.

Results

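The genes described here are 9 enzymes that make triglyceride or supply its glycerol backbone, Gpam, Gpat3, Gpat4, Agpat2, Lpin1, Dgat1, Dgat2, Pck1 and Gpd1, chosen by name as the rows of the count table that carry these symbols. All 9 were found among the 55487 genes of the table, each on 1 row. RNA of whole mammary fat pad (MFP) was sequenced in 4 libraries, 2 from aged mice (14 months) and 2 from young mice (8 weeks), of a strain the labels spell c57b/6j. No treatment or sex is given by the labels, while the methods name strain J among the mice used and female C57BL/6NCrl for the mice injected in the fat pad. Neither source says whether a library holds the tissue of 1 animal, so p-values measure the spread between these samples alone. The labels call the libraries biological replicates, numbered 1 and 2 at each age. Tissue was lysed without isolating adipocytes, so every cell type of the fat pad contributes RNA, and fewer cells of a type cannot be told apart from less RNA per cell. The comparison asks whether the RNA of the enzymes that store fatty acids as triglyceride differs between aged and young MFP.

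Adipocytes store fatty acids by attaching them in turn to glycerol 3-phosphate. Glycerol-3-phosphate acyltransferases add an acyl chain, 1-acylglycerol-3-phosphate acyltransferases add another to give phosphatidate, lipins remove the phosphate to give diacylglycerol, and diacylglycerol acyltransferases complete the triglyceride. White adipocytes have little glycerol kinase and make glycerol 3-phosphate through Gpd1, from glucose or, by glyceroneogenesis, from pyruvate and other precursors. Pck1 is the controlling enzyme of glyceroneogenesis. Loss of AGPAT2 in humans causes congenital generalized lipodystrophy, and mice without functional Lpin1 are lipodystrophic.

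Promoter sequences of RefSeq (250 bases before to 50 after the start of a gene, GRCm38.p6) matched 5 of the 9 genes, the others being Gpat4, Dgat1, Dgat2 and Gpd1. The 3 shown belong to the genes on which the comparison below turns: Pck1 and Agpat2, whose RNA differed in opposite directions between the aged replicates, and Lpin1, the enzyme whose aged libraries were both above the young. The windows are chr2:173152823-173153122 (plus strand) for Pck1, chr2:26604368-26604667 (minus strand) for Agpat2 and chr12:16610917-16611216 (minus strand) for Lpin1. Capitals mark every match, on either strand, of the 10 motifs named after the sequences.
Pck1: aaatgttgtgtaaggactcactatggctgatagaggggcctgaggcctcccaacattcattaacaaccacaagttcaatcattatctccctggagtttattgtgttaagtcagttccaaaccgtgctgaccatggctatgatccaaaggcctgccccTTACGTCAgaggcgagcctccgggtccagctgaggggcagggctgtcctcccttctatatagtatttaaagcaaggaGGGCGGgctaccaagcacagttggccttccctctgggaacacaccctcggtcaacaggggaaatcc
Agpat2: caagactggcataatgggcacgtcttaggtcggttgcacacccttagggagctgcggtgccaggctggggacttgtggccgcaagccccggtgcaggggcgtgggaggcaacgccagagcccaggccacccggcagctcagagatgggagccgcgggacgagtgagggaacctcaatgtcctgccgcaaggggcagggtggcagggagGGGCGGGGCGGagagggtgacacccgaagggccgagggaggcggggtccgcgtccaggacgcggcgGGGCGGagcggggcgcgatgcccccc
Lpin1: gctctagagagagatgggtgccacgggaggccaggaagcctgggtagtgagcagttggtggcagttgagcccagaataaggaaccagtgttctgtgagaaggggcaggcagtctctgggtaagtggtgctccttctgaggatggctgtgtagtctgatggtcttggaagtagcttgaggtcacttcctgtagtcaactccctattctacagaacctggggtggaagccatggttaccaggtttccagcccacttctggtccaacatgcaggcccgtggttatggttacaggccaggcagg

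The Pck1 window holds TTACGTCA, a variant of the cAMP response element, which begins 93 bases before the start and is present in 0.499% of the 32851 windows of this length in the table. It also holds GGGCGG, a GC box, present in 35.7% of the windows. The Agpat2 window holds GGGCGG at 3 places, of which the pair that begins 42 and 37 bases before the start overlap. The Lpin1 window holds none of the motifs searched. The other motifs searched were TGACGTCA (full cAMP response element, 1.79% of windows), CCAAT (37.4%), TATAAA (13.6%), CACGTG (E-box, 7.15%), TCACNCCAC (sterol response element, 1.24%), a direct repeat read by nuclear receptors (0.0396%), TTGCGCAA (C/EBP palindrome, 0.183%) and the glucocorticoid response element (0.00913%). Of the windows printed, G and C make up 72% of Agpat2, 55.3% of Lpin1 and 52% of Pck1. A match of letters is a description of the window and shows no binding.

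The libraries hold between 68803304 and 98402403 counts, and the 9 genes between 6312 and 169175 counts in each, so that counting error alone is at most 1.26% of any value. Levels are given as CPM, the counts of a gene relative to the library total after scaling by TMM (trimmed mean of M values). To compare genes with each other, the CPM was divided by the exon length of the gene in GENCODE M21 (CPM per kb). On that scale Dgat2 and Gpd1 were highest in young MFP, at means of 636 and 512.3 CPM per kb, followed by Agpat2 at 280.7, Pck1 at 189, Gpam at 99.3, Dgat1 at 65.8, Lpin1 at 38.9, Gpat3 at 24.2 and Gpat4 at 19.6. The order was the same in both young libraries. In aged MFP the means were 453.7 CPM per kb for Dgat2, 446.4 for Gpd1, 287 for Agpat2, 186.5 for Pck1, 109 for Gpam, 53.8 for Lpin1, 46.8 for Dgat1, 22.7 for Gpat3 and 18.7 for Gpat4. Neighbours in that order changed places between the aged libraries. Gpd1 was above Dgat2 in aged replicate 1 only. Pck1 stood above Agpat2 in aged replicate 1 only and below Gpam in aged replicate 2 only. Lpin1 stood above Dgat1 in both aged libraries and below it in both young libraries.

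**Figure D1:**
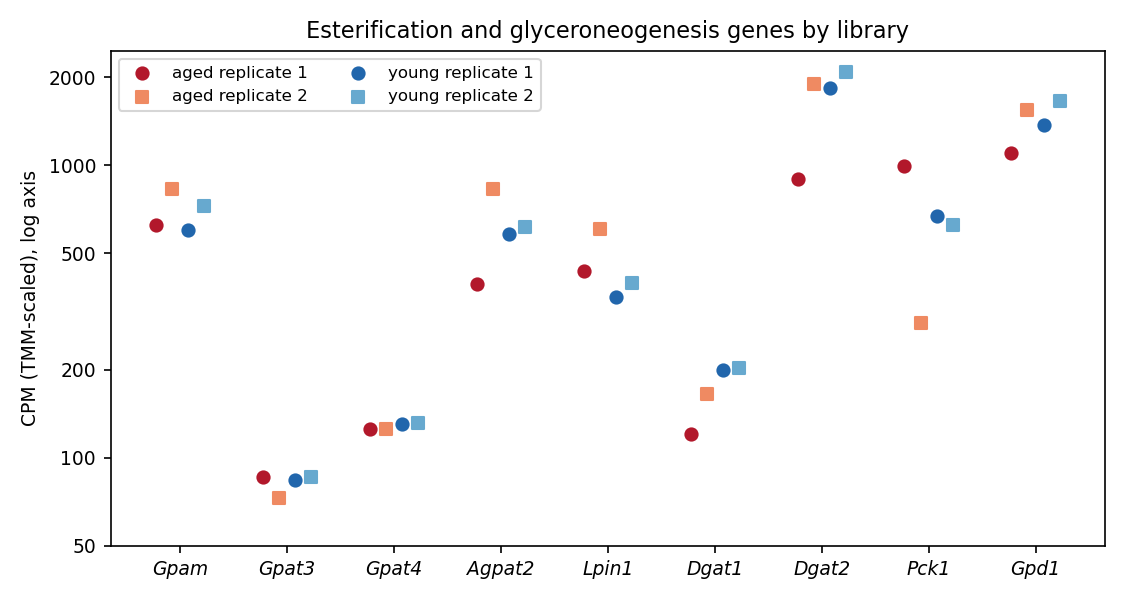
CPM (TMM-scaled, log axis) of the 9 genes in each of the 4 libraries, with aged libraries in red tones and young libraries in blue tones; each point is 1 library. The young points of a gene lie close together, while the aged points of Pck1 (990.4 and 288.9 CPM), Agpat2 (392.7 and 829.9 CPM) and Dgat2 (897.7 and 1900 CPM) lie far apart.

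No gene of the 9 passed the test between the ages. The quasi-likelihood test of edgeR, adjusted by Benjamini-Hochberg, called 0 of the 9 genes, and 0% of the 22485 genes tested, at an adjusted p of 0.05. None of the 9 genes had an unadjusted p under 0.05 in that test, against 10.5% of all genes tested (7.24% higher and 3.31% lower in aged MFP). DESeq2 called 0 of the 9 genes and 3.86% of the genes to which it gave an adjusted p. The log2 fold change of aged over young MFP was positive for 3 genes and negative for 6, with a median of -0.06, beside a median of -0.04 over all genes tested. In 3 of the 9 genes the ages did not overlap, against 46.1% of all genes tested. Lpin1 was the 1 gene above in both aged libraries, as were 23.3% of all genes, and Dgat1 and Gpat4 were the 2 genes below, as were 22.8%. Exact permutation of 2 libraries against 2 cannot give a two-sided p below 0.333, so the adjusted p-values rest on the spread that edgeR estimates across genes.

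The glycerol-3-phosphate acyltransferases start the pathway, and none of the 3 passed the test. Their log2 fold changes lay between -0.09 and 0.14 under TMM and between -0.54 and -0.26 when libraries were scaled to the adipocyte markers, where the median of all genes was -0.46. Gpam (ENSMUSG00000024978, chromosome 19 of GRCm38, 55067268 to 55127238, minus strand) encodes the isoform of the outer mitochondrial membrane. It was at 624.2 and 828.8 CPM in aged replicates 1 and 2, and at 599.5 and 723.6 CPM in young replicates 1 and 2. Replicate 2 was the higher library at each age and the ages overlapped. Between the ages Gpam differed by 0.14 on the log2 scale (standard error 0.24, 95% interval -0.53 to 0.80, edgeR adjusted p = 0.828).

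Gpat3 (ENSMUSG00000029314, chromosome 5, 100845713 to 100899102, plus strand) and Gpat4 (ENSMUSG00000031545, chromosome 8, 23171265 to 23208346, minus strand) encode isoforms of the endoplasmic reticulum. Gpat3 was at 86.1 and 72.8 CPM in the aged and at 83.8 and 85.5 CPM in the young libraries. Aged replicate 2 was the low library, and the other 3 lay close together. Its exons overlap those of 4930458D05Rik on the other strand and of Gm42987 on the same strand, so that its count is uncertain by reads of these genes. Gpat3 had a log2 fold change of -0.09 (95% interval -0.48 to 0.30, edgeR adjusted p = 0.799). Gpat4 was the steadiest of the 9 genes, at 124.9 and 125.6 CPM in the aged and at 130.4 and 131.4 CPM in the young libraries. Both aged libraries of Gpat4 were below both young libraries, by a log2 fold change of -0.06 (95% interval -0.39 to 0.26, edgeR adjusted p = 0.833).

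Agpat2, the 1-acylglycerol-3-phosphate acyltransferase of adipose tissue, differed more between the aged libraries than between the ages. Agpat2 (ENSMUSG00000026922, chromosome 2, 26593057 to 26604417, minus strand) was at 392.7 and 829.9 CPM in aged replicates 1 and 2 and at 583.2 and 612.5 CPM in the young libraries. Both young libraries lay between the aged ones. Its log2 fold change was 0.03 (standard error 0.41, 95% interval -1.08 to 1.15, edgeR adjusted p = 0.976). It was -0.61 without aged replicate 2 and 0.46 without aged replicate 1, so its direction was set by which aged library was kept. A stretch of 64 bases of its exons is shared with Egfl7 on the other strand.

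Lpin1, a phosphatidate phosphatase that also acts as a transcriptional coactivator, had the highest log2 fold change of the 9 genes. Lpin1 (ENSMUSG00000020593, chromosome 12, 16535669 to 16610966, minus strand) was at 434.3 and 606.5 CPM in the aged and at 355.4 and 395.9 CPM in the young libraries. Both aged libraries were above both young libraries, and aged replicate 2 was the highest of the 4. The log2 fold change was 0.47 (standard error 0.23, 95% interval -0.17 to 1.11, edgeR adjusted p = 0.528), 0.68 without aged replicate 1 and 0.21 without aged replicate 2. The skeletal muscle markers, of a tissue that also expresses Lpin1, moved in the same direction, and their part in this difference was not tested.

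The diacylglycerol acyltransferases, which complete the triglyceride, both had a mean below that of young MFP. Dgat1 (ENSMUSG00000022555, chromosome 15, 76502015 to 76511953, minus strand) was at 120.3 and 165.6 CPM in the aged and at 199.5 and 202.8 CPM in the young libraries. Both aged libraries were below both young libraries, which differed from each other by less than the aged libraries did. On the log2 scale, aged minus young, Dgat1 was at -0.49 (standard error 0.20, 95% interval -1.05 to 0.06, edgeR adjusted p = 0.5), the lowest adjusted p of the 9 genes. It ranged from -0.74 to -0.29 with each library left out in turn, the higher value without aged replicate 1.

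Dgat2 (ENSMUSG00000030747, chromosome 7, 99153658 to 99182719, minus strand) encodes an acyltransferase of another protein family with the same reaction. It was at 897.7 and 1900 CPM in aged replicates 1 and 2, and at 1839 and 2083 CPM in the young libraries. Aged replicate 1 stood apart, and aged replicate 2 lay between the young libraries. The log2 fold change of Dgat2 was -0.49 (standard error 0.44, 95% interval -1.70 to 0.72, edgeR adjusted p = 0.658). Without aged replicate 1 it was -0.06 and without aged replicate 2 it was -1.13, so most of the difference rests on aged replicate 1.

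The widest spread of the 9 genes was that of Pck1, the phosphoenolpyruvate carboxykinase of the cytosol. Pck1 (ENSMUSG00000027513, chromosome 2, 173153048 to 173159273, plus strand), whose promoter is printed above, was at 990.4 and 288.9 CPM in aged replicates 1 and 2. The young libraries lay between them, at 670.6 and 625.9 CPM. The means of the ages were 639.7 and 648.2 CPM, with an SD of 496 CPM (n = 2) in aged and 31.6 CPM (n = 2) in young MFP. The log2 fold change was -0.02 (standard error 0.62, 95% interval -1.73 to 1.69, edgeR adjusted p = 0.991). It was -1.18 without aged replicate 1 and 0.61 without aged replicate 2. An interval this wide leaves changes of either direction undetermined for Pck1.

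Gpd1, the cytosolic glycerol-3-phosphate dehydrogenase that forms glycerol 3-phosphate, overlapped between the ages. Gpd1 (ENSMUSG00000023019, chromosome 15, 99717515 to 99725005, plus strand) was at 1100 and 1544 CPM in the aged and at 1374 and 1660 CPM in the young libraries. Aged replicate 1 was lowest and young replicate 2 highest. The log2 fold change was -0.20 (standard error 0.29, 95% interval -0.998 to 0.60, edgeR adjusted p = 0.786), and 0.01 without aged replicate 1. Its exons share 384 bases with Gm16537 on the other strand.

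**Figure D2:**
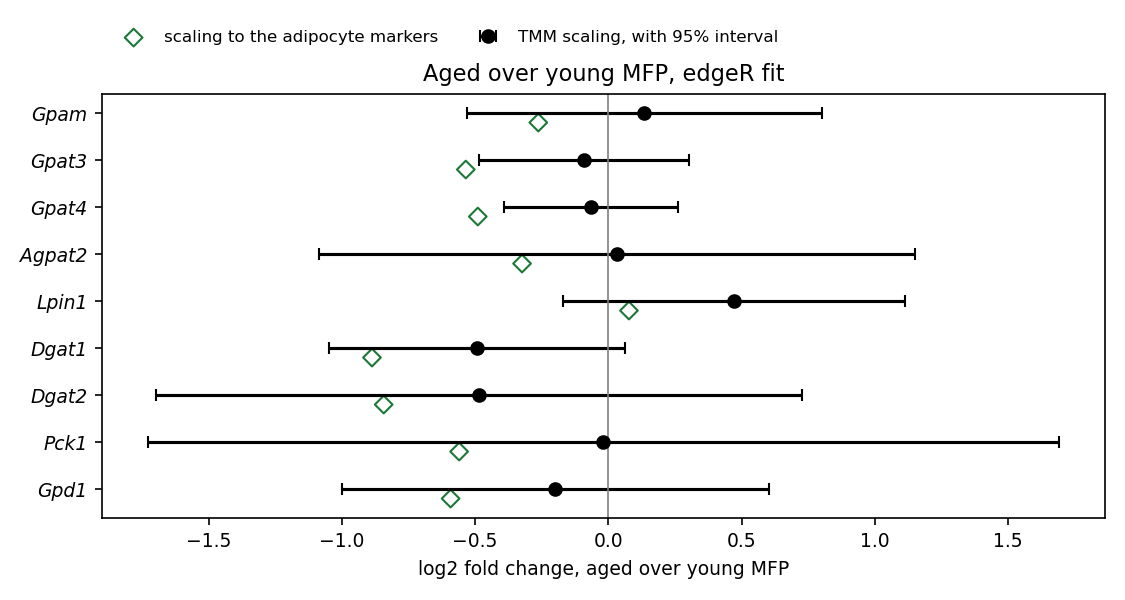
Log2 fold change of aged over young MFP for each of the 9 genes; black points with bars are the edgeR estimates under TMM scaling with 95% intervals, and open diamonds the estimates when libraries are scaled to the adipocyte markers. Every interval includes 0, from the narrow one of Gpat4 (-0.39 to 0.26) to that of Pck1 (-1.73 to 1.69), and under the adipocyte scaling 8 of the 9 estimates are negative. Under that scaling the median of the 9 genes is -0.54 and that of all genes tested is -0.46.

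For most of the 9 enzymes the aged libraries lay farther apart than the young ones, while over all genes tested the young libraries lay farther apart. The ratio of the higher to the lower library was larger in aged than in young MFP for 8 of the 9 genes, against 34.5% of all genes tested. The 9 enzymes were not alone in this. The ratio was also larger in aged MFP for every adipocyte marker, from Cfd (1.139 against 1.112) to Plin4 (2.46 against 1.172). The same held for every skeletal muscle marker but Myh1 (5.853 against 74.81). For every mammary luminal marker it was larger in young MFP. In young MFP this ratio ran from 1.01 to 1.21 over the 9 genes, and in aged MFP from 1.01 for Gpat4 to 3.43 for Pck1, with 2.12 for Dgat2 and 2.11 for Agpat2. Over all genes tested the median ratio was 1.18 in aged and 1.32 in young MFP. Of all genes tested, 2.81% had aged libraries farther apart than those of Pck1, 7.49% than those of Dgat2 and 7.54% than those of Agpat2. The direction was not shared. Aged replicate 1 was below aged replicate 2 for 7 genes and above it for Pck1 and Gpat3. For 3 genes, Agpat2, Pck1 and Gpat3, the aged libraries lay on either side of both young libraries, which holds for 6.87% of all genes tested. Aged replicate 1 was the lowest of the 4 libraries for 5 genes, against 22.9% of all genes tested.

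**Figure D3:**
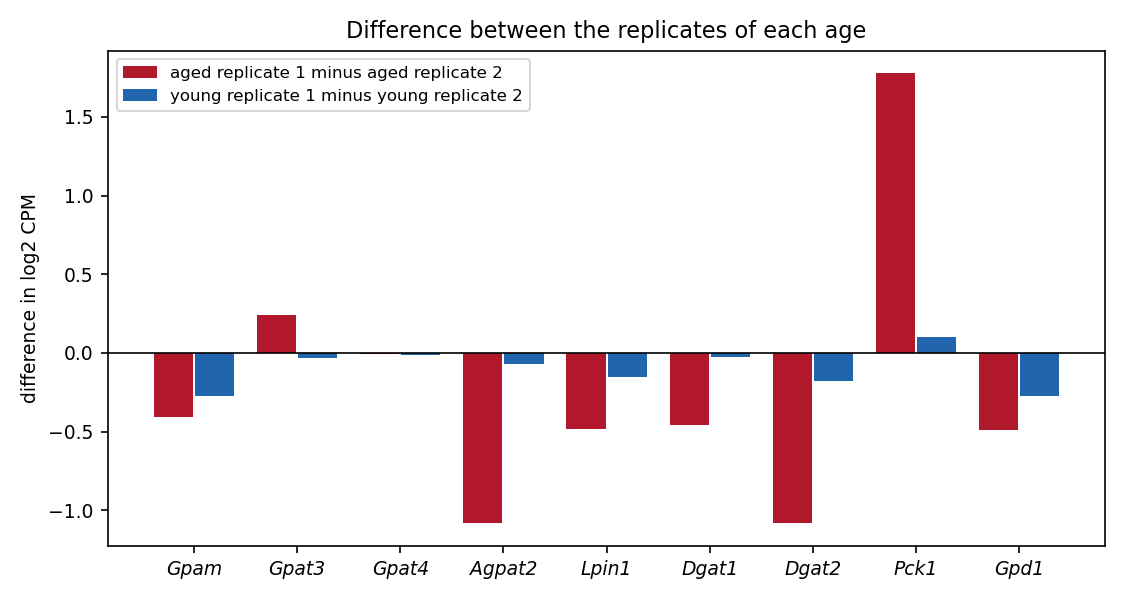
Difference in log2 CPM between replicate 1 and replicate 2 of the aged (red bars) and young (blue bars) MFP for each of the 9 genes. The aged bar is longer for 8 genes, with 1.78 for Pck1 against -1.08 for both Agpat2 and Dgat2, while no young bar passes -0.27 in size.

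Genes whose levels over the 4 libraries lay nearest to each enzyme were sought among 10620 genes with a mean of at least 10 CPM, by the distance between log2 CPM profiles centred on their mean. This ranking was chosen after values were seen and describes these 4 libraries alone. Nearest to Agpat2 were Hsd17b12, which acts in the elongation of fatty acids, Pcx, the pyruvate carboxylase, and Fasn, the fatty acid synthase. Pcx was at 1195 and 2520 CPM in the aged and at 1828 and 1979 CPM in the young libraries. Fasn was at 17350 and 36810 CPM in the aged and at 25140 and 28440 CPM in the young libraries. As with Agpat2, the young libraries of Pcx and Fasn lay between an aged replicate 1 below and an aged replicate 2 above. Next were Pdhb, a subunit of pyruvate dehydrogenase, and the glycolytic enzyme Eno1. Nearest to Dgat2 was Mpc2, a subunit of the mitochondrial pyruvate carrier, at 102.2 and 236.5 CPM in the aged and at 204 and 237.1 CPM in the young libraries. It was followed by Slc25a10, the mitochondrial dicarboxylate carrier, and then by Tm7sf2, Pygl and Cisd3. The genes nearest to Pck1 were farther away than those of the other enzymes. They were Padi2, Ffar2, a receptor for short-chain fatty acids, Nnmt, nicotinamide N-methyltransferase, Sh3pxd2a and Gm42047. Nnmt was at 50.4 and 21.9 CPM in the aged and at 39.2 and 31.1 CPM in the young libraries. For the other enzymes the nearest genes were Snx7 (Gpam), Cep162 (Gpat3), Pdcd6ip (Gpat4), Foxred2 (Lpin1), Gpx8 (Dgat1) and Taf13 (Gpd1). Cep162 lay closer to Gpat3 (distance 0.0089) than Hsd17b12 to Agpat2 (0.053). Distances were not scaled to the spread of a gene. They therefore depend on how widely each enzyme varied, and do not rank likeness between enzymes. The mean profile of the 9 genes was lowest in aged replicate 1, at -0.18 from its mean on the log2 scale. The genes nearest to it were Timm50, Dnm1l, Mtif2, Tbl3 and Naa25.

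Ratios of genes within a library do not depend on how libraries are scaled, and were taken per length. Of the 36 pairs of the 9 genes, 16 had ratios that did not overlap between the ages, against 44.6% of all pairs of genes tested. The largest fold between the ages among these was 2.05, for Lpin1 to Dgat2, followed by 1.95 for Lpin1 to Dgat1. Lpin1 to Dgat1 was 1.14 and 1.16 in aged libraries, against 0.563 and 0.617 in young libraries. The aged libraries agreed closely on it, although each gene alone differed between them. Agpat2 to Dgat2 was 0.633 and 0.632 in aged libraries, against 0.459 and 0.426 in young libraries. For the ratio of the genes that supply glycerol 3-phosphate, the aged libraries differed. Pck1 to Gpd1 was 0.777 and 0.162 in aged replicates 1 and 2, beyond the young libraries (0.422 and 0.326) in opposite directions. These pairs were picked with their values known, and no test was made on them.

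**Figure D4:**
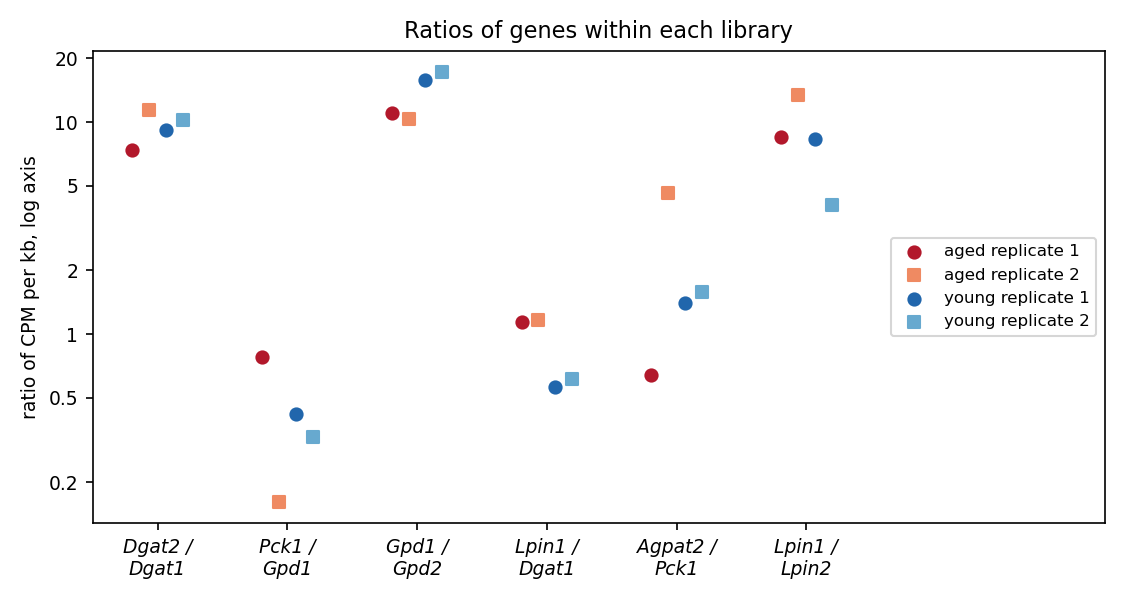
Ratio of the CPM per kb of pairs of enzymes within each library (log axis); each point is 1 library, aged in red tones and young in blue tones. Lpin1 to Dgat1 is higher in both aged libraries (1.14 and 1.16) than in both young ones (0.563 and 0.617), while the aged libraries lie on either side of the young ones for Agpat2 to Pck1 (0.639 and 4.62 against 1.4 and 1.58).

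Shares of the RNA of a step were taken per length within each enzyme family. Of the RNA of the glycerol-3-phosphate acyltransferases, Gpam held 68.4% and 75.9% in aged replicates 1 and 2. It held 67.4% and 71.1% in young replicates 1 and 2, so the ages overlapped. Gpat2, an isoform known from testis, held at most 0.0938% in any library. Agpat2 held 77.7% and 87.5% of its step in aged replicates 1 and 2, and 84.1% and 84.9% in the young replicates. Dgat2 held between 88.1% and 91.9% of the diacylglycerol acyltransferase RNA over the 4 libraries. Pck1 held 98% of the carboxykinase RNA in aged replicate 1 and 93.4% in aged replicate 2, the rest being the mitochondrial Pck2. The young libraries lay between them, at 97.5% and 96.3%. Among the glycerol-3-phosphate dehydrogenases, Gpd1 held 89.3% and 89.5% in aged libraries, against 92.1% and 93% in young libraries. Gpd2, the mitochondrial enzyme that consumes glycerol 3-phosphate, held 8.06% and 8.67% in aged libraries, against 5.83% and 5.42% in young libraries. Among the lipins alone, Lpin1 held 83% and 89.2% in aged libraries, against 83.1% and 72.3% in young libraries. The lipid phosphate phosphatases, which also act on phosphatidate, are not in that share. Plpp3, the most abundant of them per length, was at a mean of 57.9 CPM per kb in aged and 39.5 CPM per kb in young MFP, against 53.8 and 38.9 CPM per kb for Lpin1.

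Marker lists of the cell types of the fat pad were set beside these values, and edgeR called 0 genes of any of them. The 8 adipocyte markers summed to 14970 and 11220 CPM in the aged and to 9300 and 9488 CPM in the young libraries, with 7 of 8 above in both aged libraries, against 23.3% of all genes tested, and a median log2 fold change of 0.44. Aged replicate 1, with the highest sum of adipocyte markers, had the lowest sum of the 9 enzymes, at 4771 CPM against 6362 CPM in aged replicate 2 and 5835 and 6520 CPM in the young libraries. When the libraries were scaled so that the adipocyte markers were level, 8 of the 9 log2 fold changes were negative, with a median of -0.54, while the median of all genes tested moved to -0.46. Under TMM these medians were -0.06 and -0.04. Lpin1 was at 0.08 and Dgat1 was at -0.89, with an edgeR adjusted p of 0.319. The 8 skeletal muscle markers summed to 16900 and 33390 CPM in the aged and to 4867 and 7673 CPM in the young libraries, all 8 above in both aged libraries against the same 23.3% of all genes, with a median log2 fold change of 2.00. The part of either list in the values of the 9 genes was not tested.

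The median log2 fold change was 0.70 for 6 brown fat markers, 0.14 for 6 mammary luminal markers, 0.60 for the 5 of 6 epidermal and sebaceous markers tested, 0.54 for 6 macrophage markers and 0.37 for 6 endothelial markers. The summed level of the brown fat markers ran from 129.6 to 165.1 CPM in the aged and from 102.5 to 114.7 CPM in the young libraries, and that of the macrophage markers from 249.9 to 286 and from 177.8 to 188.7 CPM. The brown fat list went both ways. Ucp1, the uncoupling protein that defines brown fat, was at 13.1 and 10.1 CPM in the aged and at 21.8 and 18.1 CPM in the young libraries, a log2 fold change of -0.78 (edgeR adjusted p = 0.432), and the other 5 markers were positive. The mammary luminal markers, at 1460 and 1427 CPM in the aged, differed more between the young libraries, at 848.7 and 2035 CPM. The endothelial markers summed to 834.1 and 625.5 CPM in the aged and to 549.7 and 631.9 CPM in the young libraries. The epidermal and sebaceous markers summed to at most 53.8 CPM in any library, and Lor was at 0 counts in aged replicate 2 and young replicate 2. In edgeR 7 skeletal muscle markers had an unadjusted p under 0.05, with a higher level in aged MFP, against 7.24% of all genes tested. DESeq2 called 5 skeletal muscle and 2 brown fat markers, against 3.86% of the genes to which it gave an adjusted p. All were higher in aged MFP. The brown fat markers called were Cox8b and Zic1, not Ucp1, and Zic1 had only 6 and 5 counts in young replicates 1 and 2. The skeletal muscle markers moved in the same direction, and their part in the values of Cox8b and Zic1 was not tested.

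The other genes of the pathway were followed by lists, and edgeR called 0 genes of any list. Of the 15 genes listed as isoforms of the same steps, 8 had a positive and 7 a negative log2 fold change. Their median was 0.10, and DESeq2 called 0. The list also holds the monoacylglycerol acyltransferases and Gpd2, which lie outside those steps. The largest values were those of Mogat1, a monoacylglycerol acyltransferase, with 0.67 (edgeR adjusted p = 0.535), and of Gpat2, with -0.64 (edgeR adjusted p = 0.773) at no more than 0.329 CPM in any library. Mogat1 was at 9.45 and 14.4 CPM in the aged and at 9.04 and 5.95 CPM in the young libraries.

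Of the 12 genes of substrate supply, 8 had a positive and 4 a negative log2 fold change, with a median of 0.21. DESeq2 called 1 of them, against 3.86% of the genes to which it gave an adjusted p. This was Acsl6, an acyl-CoA synthetase, at a DESeq2 adjusted p of 1.7e-05. Acsl6 was at 3.06 and 5.18 CPM in the aged and at 0.781 and 0.515 CPM in the young libraries, a log2 fold change of 2.66 (edgeR adjusted p = 0.36). It had only 64 and 38 counts in young replicates 1 and 2. The skeletal muscle markers moved in the same direction, and their part in the difference of Acsl6 was not tested. Aqp3, a channel for water and glycerol, had -0.95 (edgeR adjusted p = 0.777), with overlap between the ages. Acsl1, the main acyl-CoA synthetase of adipocytes, chosen for mention once its level was known, was at 1348 and 1432 CPM in the aged and at 1753 and 1826 CPM in the young libraries. Its log2 fold change was -0.36 (edgeR adjusted p = 0.565).

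Of the 6 protein partners, 5 had a positive log2 fold change, with a median of 0.33. The largest was that of Fitm1, a fat storage-inducing protein best known from skeletal muscle, at 13 and 17.2 CPM in the aged and at 3.11 and 4.34 CPM in the young libraries. Fitm1 had a log2 fold change of 2.02 (edgeR adjusted p = 0.36, DESeq2 adjusted p = 1.47e-06). It was the 1 gene of the list that DESeq2 called, against 3.86% of the genes to which DESeq2 gave an adjusted p. Ldaf1, the seipin partner, had 0.66 (edgeR adjusted p = 0.488), while seipin itself, Bscl2, overlapped between the ages at -0.20 (edgeR adjusted p = 0.73). The muscle markers moved in the direction of Fitm1, and their part in its difference was not tested.

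Of the 13 genes of the phospholipid branch, which draws on the same phosphatidate and diacylglycerol, 6 had a positive and 7 a negative log2 fold change, with a median of -0.01, and DESeq2 called 0. The largest values were those of Pcyt1a, the controlling enzyme of phosphatidylcholine synthesis, and Cds1, a CDP-diacylglycerol synthase. Pcyt1a was at 97.9 and 113.2 CPM in the aged and at 59.5 and 71.6 CPM in the young libraries, a log2 fold change of 0.69 (edgeR adjusted p = 0.406). Cds1 was at 19.9 and 17.3 CPM in the aged and at 9.56 and 13.7 CPM in the young libraries, a log2 fold change of 0.68 (edgeR adjusted p = 0.479).

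**Figure D5:**
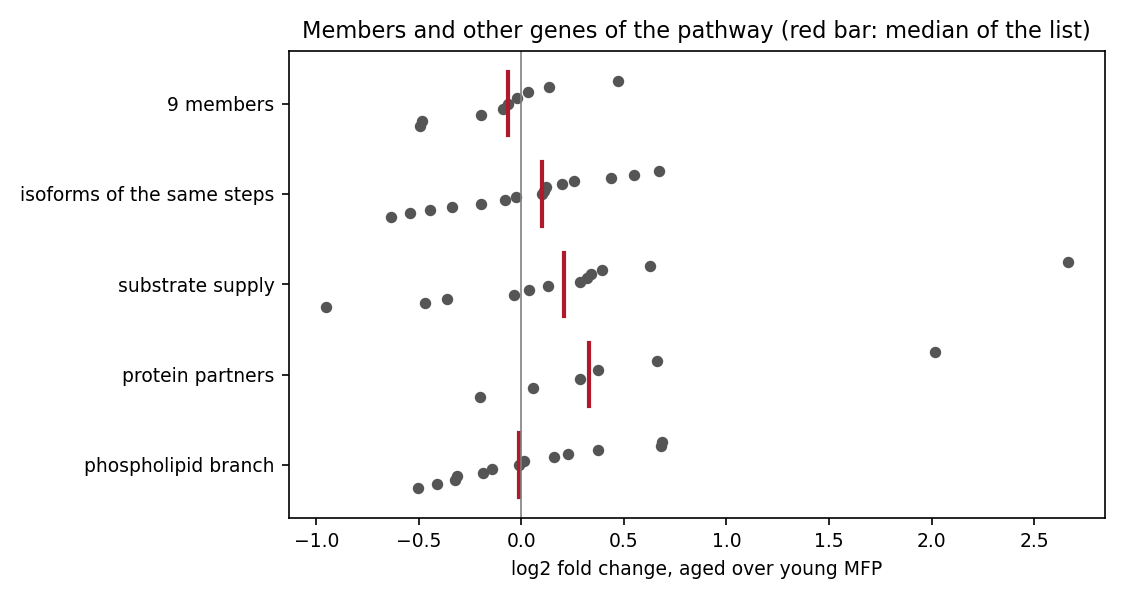
Log2 fold change of aged over young MFP for the 9 enzymes and the genes of the other lists of the pathway; each point is 1 gene and the red bar the median of the list. The medians lie between -0.06 for the 9 enzymes and 0.33 for the protein partners, and the points of Acsl6 (2.66) and Fitm1 (2.02) lie farthest to the right.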

How the data were processed

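Total RNA of whole MFP, depleted of ribosomal RNA, was sequenced with a directional library kit in 2 aged and 2 young samples, grouped by their labels. Deposited were whole-number counts of reads by gene, which the authors had not normalized or pooled. The submitters' processing notes name featureCounts, R 3.6.1 and the builds GRCm38 and hg38, the latter of the human genome. The identifiers of the counts are those of mouse genes. The strand setting is not given in the sources used here. The methods name DESeq2 for the MFP.

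From the counts, 22485 genes passed filterByExpr. TMM scaling and the test used edgeR 4.0.16 (glmQLFit with the legacy method, glmQLFTest) under R 4.3.3, with age as the only term and Benjamini-Hochberg adjustment. The 95% intervals use the moderated degrees of freedom, and log2 CPM a prior count of 2. Alternatives were other scalings, one of them level in the adipocyte markers, other filters, leaving out mitochondrially encoded genes, DESeq2 1.42.0 with its filter set for a threshold of 0.05, limma 3.58.1 (voom), edgeR without the legacy method, the replicate number as a block, and leaving out each sample. Added with the values known were the crossed block, the ratios and the genes nearest to each enzyme. The code was tested on simulated counts.

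Members and lists were chosen with earlier results of these data known. Named were the 9 members, the 2 genes with the largest absolute log2 fold change in each pathway list, those that passed the test (none) and the 5 genes nearest to the mean profile; others are marked as singled out later. Bscl2, Acsl1, Gpd2, Pck2, Plpp3, Ucp1, Cfd, Plin4, Myh1, Cox8b and Zic1 fall outside this rule and were named after their values were seen. Same-numbered samples tended to deviate in opposite directions from the mean of their age (correlation -0.48 over 22485 genes). What lies behind this was not tested. Coordinates and exon lengths come from GENCODE M21, which holds 55227 of the 55487 identifiers. Counting errors cover counting only, since PCR copies are not independent molecules.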

Additional observations from a re-analysis of the deposited data

How the results depend on the processing

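The scaling and the aged libraries decided the direction of several of these enzymes, and no alternative brought any of them past the test. Under each of the 12 alternatives that keep all 4 samples, 0 of the 9 enzymes passed an adjusted p of 0.05. Under all of these but DESeq2, 0 of all genes tested passed, so the count there says nothing particular about the enzymes. Of 144 log2 fold changes (9 enzymes under 16 alternatives), 129 kept their sign and 15 did not. Agpat2, 0.03 in the report, was -0.002 under upper quartile scaling, -0.167 with total counts only, -0.324 with scaling to the adipocyte markers and -0.071 by limma voom. Gpam was -0.053 with total counts only and -0.263 with scaling to the adipocyte markers. The median of the 9 enzymes was -0.244 with total counts only and -0.535 with the adipocyte scaling, while the median of all genes tested moved to -0.215 and -0.462. With total counts only, the medians were -0.081 for the isoforms, 0.021 for substrate supply, 0.146 for the protein partners, -0.204 for the phospholipid branch (-0.048 under upper quartile scaling) and 0.361 for the macrophage markers. With the adipocyte scaling they were -0.322, -0.196, -0.087, -0.414 and 0.144 in the same order, and -0.019 for the adipocyte, 0.297 for the brown fat, 0.221 for the epidermal and sebaceous and -0.085 for the endothelial markers. With at least 10 counts in every sample the epidermal and sebaceous median was 0.287. DESeq2 called 865 genes, of which 1 was of substrate supply, 1 a protein partner, 5 skeletal muscle markers and 2 brown fat markers. Why the tools differ was not tested.

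With the replicate block Agpat2 was at -0.066 and no enzyme passed, the calls over all genes numbered 0, and 1346 genes were under an unadjusted p of 0.05, against 2371 without it. The samples share only a number. With the crossed pairing the calls numbered 0, and 2494 genes were under an unadjusted p of 0.05.

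Leaving out 1 sample at a time gave log2 fold changes from -0.083 (without aged replicate 2) to 0.313 for Gpam, from -0.23 to 0.025 (without aged replicate 2) for Gpat3, from -0.072 to -0.047 for Gpat4, from -0.606 (without aged replicate 2) to 0.461 for Agpat2, from 0.209 to 0.679 for Lpin1, from -0.741 to -0.293 for Dgat1, from -1.127 to -0.057 for Dgat2, from -1.178 (without aged replicate 1) to 0.612 (without aged replicate 2) for Pck1 and from -0.463 to 0.013 (without aged replicate 1) for Gpd1. Without young replicate 1, Agpat2 was at -0.004 and Pck1 at 0.03. The medians ranged from 0.058 to 0.175 for the isoforms, from 0.071 (without aged replicate 2) to 0.348 for substrate supply, from 0.252 to 0.36 for the protein partners, from -0.172 to 0.028 for the phospholipid branch, from 0.171 (without aged replicate 1) to 0.583 for the adipocyte, from 1.385 to 2.33 for the skeletal muscle, from -0.341 to 0.942 (without young replicate 2) for the mammary luminal, from 0.174 to 0.914 for the epidermal and sebaceous from 0.371 to 0.699 for the macrophage and from 0.094 (without aged replicate 1) to 0.613 for the endothelial markers. A fit that leaves 1 sample at an age assumes that it varies like the others. The 9 enzymes have at least 6312 counts in every library, so the spread between samples, not depth, limits these comparisons.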
